A study of Mus musculus with 6 samples.

Results

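The glutathione, peroxiredoxin and thioredoxin enzymes were taken from the deposited expression table by gene symbol: glutathione transferases of the cytosol and mitochondria (Gst), glutathione peroxidases (Gpx), peroxiredoxins (Prdx), all symbols beginning with Txn, superoxide dismutases (Sod) and quinone reductases (Nqo). Of 45038 rows, 63 matched, and 3 rows named as pseudogenes were left out, which gave 60 genes: 21 glutathione transferases, 8 glutathione peroxidases, 8 peroxiredoxins, 6 genes of the thioredoxin system, 12 thioredoxin-domain proteins, 3 superoxide dismutases and 2 quinone reductases. All 60 matched GENCODE mouse release 21 on GRCm38, where 59 are protein-coding and Prdx2-rs3 is a processed pseudogene. The name pattern also takes in Txnl4a and Txnl4b, which have a thioredoxin fold but work in the splicing machinery.

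The study compared circulating tumor cells (CTCs), tumor cells found in blood, with tumor cells of the same mice by RNA sequencing. Mice 1157, 1168 and PDGF1 each gave 1 CTC and 1 tumor cell, 6 cells in all, and the sample titles write GBM for the tumor cells. The strain, genotype, age and treatment of the mice, the tumor model and the place the cells were taken from are not given in the sources used here. Levels are in FPKM, which divides the fragments of a gene by its length and by the size of the library, and each sample is a single cell whose mRNA went through 3 rounds of linear amplification per the labels' protocols.

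These enzymes keep reactive oxygen species and reactive chemicals in check. Superoxide dismutases turn superoxide into hydrogen peroxide, which peroxiredoxins and glutathione peroxidases reduce further. Peroxiredoxins draw their electrons from thioredoxin, which thioredoxin reductases recharge with NADPH, and glutathione peroxidases draw theirs from glutathione. Glutathione transferases attach glutathione to electrophiles, and quinone reductases reduce quinones without forming radicals. Many of these genes are targets of the transcription factor NRF2, and in brain tumors the system is studied for its part in resistance to radiation and alkylating drugs.

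A feature that the choice by name did not use divides the group. In 7 of the 60 genes GENCODE annotates a selenocysteine, an amino acid with selenium that sits in the active site and is encoded by TGA, normally a stop codon. These are Gpx1, Gpx2, Gpx3, Gpx4 and the reductases Txnrd1, Txnrd2 and Txnrd3. The coding sequence around that codon is shown to let the 2 families be compared, with TGA in capitals, 5′ to 3′ on the strand of the gene, from the GENCODE transcript with the longest coding sequence.
Gpx1: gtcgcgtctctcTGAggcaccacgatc
Gpx2: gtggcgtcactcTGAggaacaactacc
Gpx3: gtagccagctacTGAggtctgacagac
Gpx4: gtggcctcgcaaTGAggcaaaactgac
Txnrd1: cagtctggctgcTGAggttaa
Txnrd2: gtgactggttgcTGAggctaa
Txnrd3: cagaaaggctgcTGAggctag
In the peroxidases the codon lay inside the coding sequence, at codon 47 of 201 in Gpx1 (chr9:108339451-108339453, plus strand, GRCm38) and codon 129 of 253 in Gpx4 (chr10:80054737-80054739, plus strand). In the reductases it was the last but one codon before the stop, codon 612 of 613 in Txnrd1 (chr10:82896037-82896039, plus strand) and 526 of 527 in Txnrd2 (chr16:18477772-18477774, plus strand).

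The enzymes were broadly present in 1 mouse only. At 1 FPKM or more there were 38 of 60 in the CTC and 42 of 60 in the tumor cell of mouse 1168. Mouse 1157 had 7 in its CTC and 12 in its tumor cell, and mouse PDGF1 had 3 and 5. In total 47 genes reached 1 FPKM in at least 1 cell, 30 of them only in cells of mouse 1168, and 13 reached it in none. Those 13 include Gpx2, Gpx5 and Gpx6, known from gut lining, epididymis and olfactory tissue, the extracellular dismutase Sod3, and Gsta1, Gsta2, Gstm3, Gstm6, Gstp2 and Gstt3. Gpx2 was listed at 0 in all 6 cells.

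That pattern followed the cells as a whole. The share of all 18772 named protein-coding genes at 1 FPKM or more was 43.1% and 49.9% in the CTC and tumor cell of mouse 1168, where the enzymes stood at 63.3% and 70.0%. Mouse 1157 had 10.3% and 16.0%, with the enzymes at 11.7% and 20.0%. Mouse PDGF1 had 4.85% and 10.3%, with the enzymes at 5.00% and 8.33%. Olfactory and vomeronasal receptor genes, which sensory neurons of the nose express, gave a background level for each cell as the 99th percentile of their FPKM. In CTC and tumor cell, mouse 1157 had a level of 0.885 and 1.58 FPKM, mouse 1168 of 0.167 and 1.52, and mouse PDGF1 of 4.03 and 7.02. Mouse 1157 had 8 and 10 enzyme genes above it, mouse 1168 had 40 and 41, and mouse PDGF1 had 0 in both cells. No value of these genes in mouse PDGF1 can therefore be told from background. Read counts were not analysed here, so the depth of each cell is unknown, and a transcript that is absent cannot be told apart from one that was not captured.

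**Figure D1:**
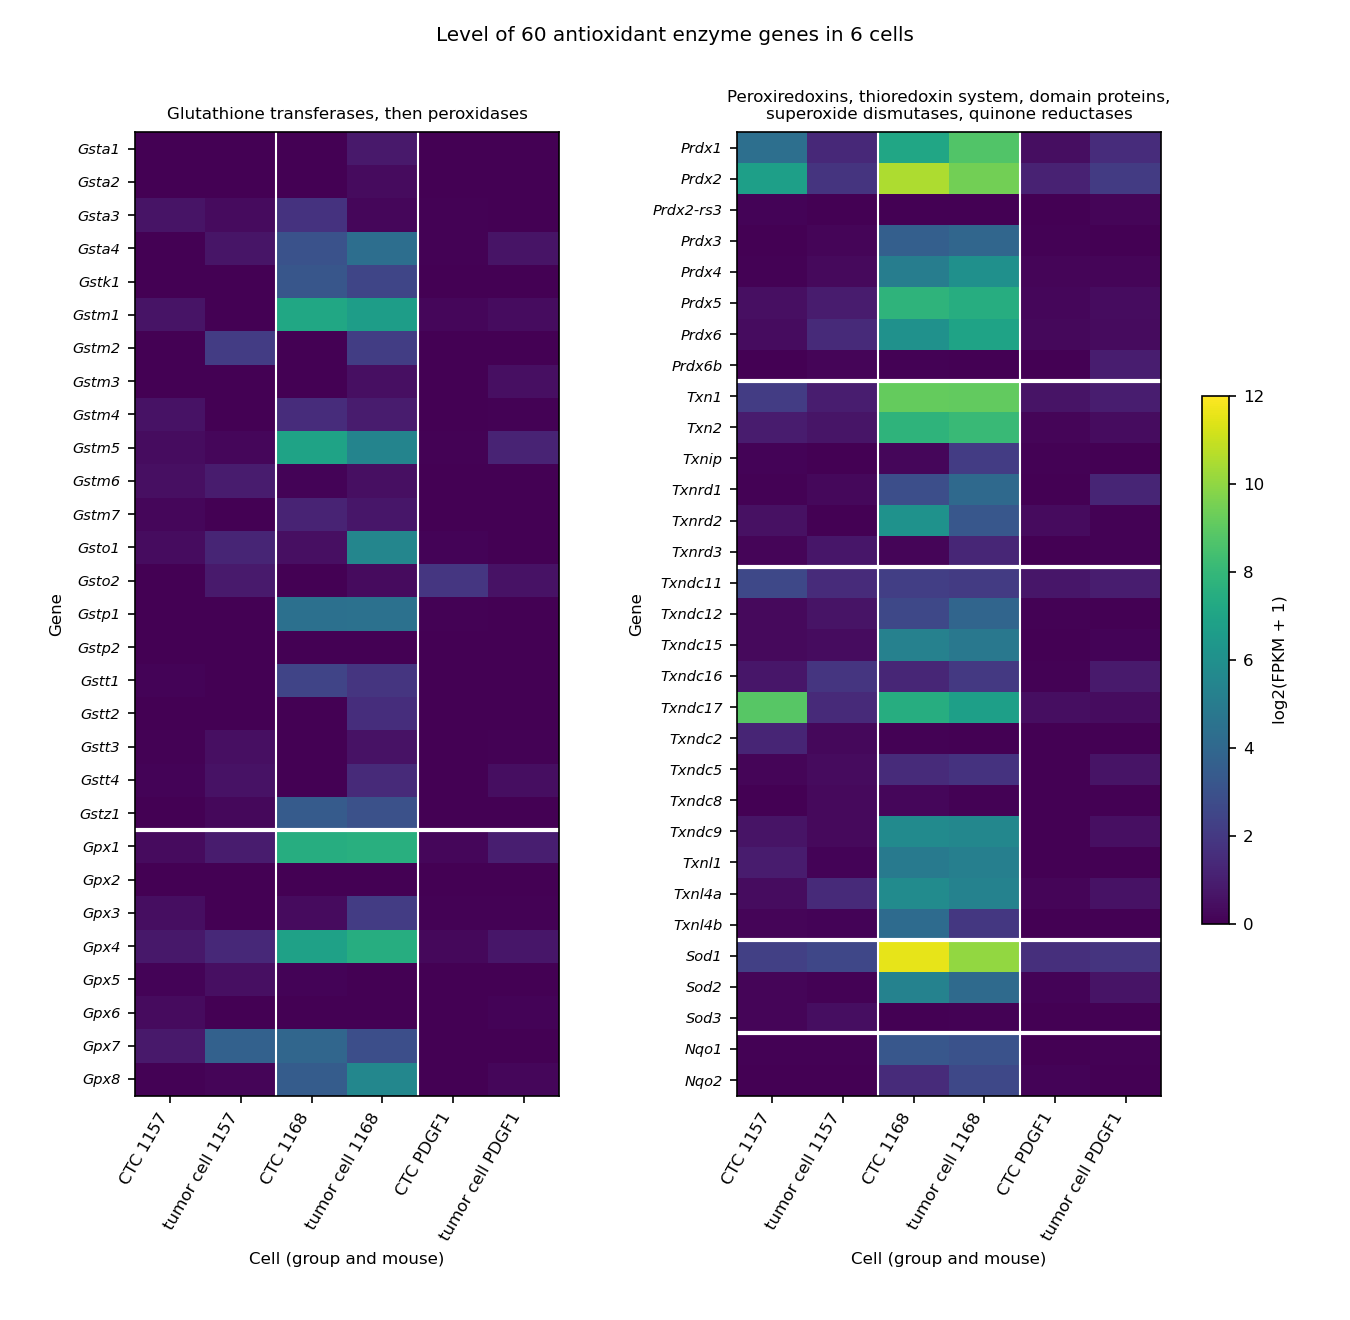
Colour gives log2(FPKM + 1) of each of the 60 genes (rows, in blocks by enzyme class divided by white lines) in each of the 6 cells (columns, by mouse). The columns of mouse 1168 are bright in most classes, and outside them the brightest fields are Txndc17, Prdx2 and Prdx1 in the CTC of mouse 1157, at 468, 109.8 and 20.1 FPKM.

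**Figure D2:**
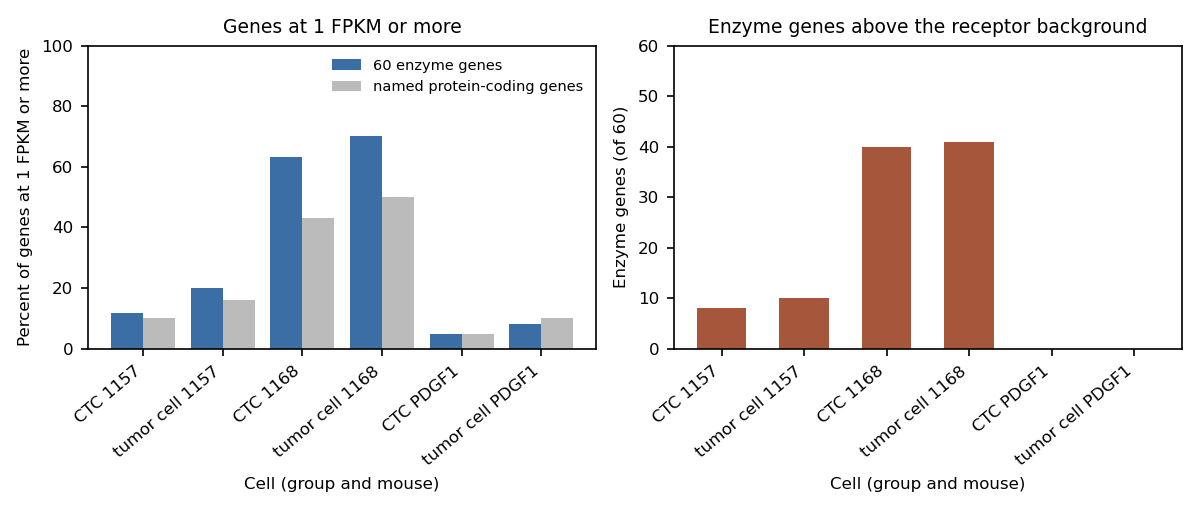
Left, percent of genes at 1 FPKM or more in each cell, for the 60 enzyme genes and for all named protein-coding genes. Right, number of enzyme genes above the receptor background of the same cell, 40 and 41 in the cells of mouse 1168 and 0 in both cells of mouse PDGF1.

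The CTC had fewer enzyme genes at 1 FPKM or more than its tumor cell in 3 of 3 mice, by 5 (mouse 1157), 4 (mouse 1168) and 2 genes (mouse PDGF1), a mean of -3.67 ± 1.53 (SD, n = 3 mice). All genes in the table did the same, from 2870 and 4078 genes (mouse 1157) to 9702 and 11239 (mouse 1168) and 1486 and 3025 (mouse PDGF1). At 5 FPKM the mean difference of the enzymes was 0.667 ± 2.08 (SD, n = 3 mice), and at 10 FPKM 0.333 ± 1.53 (SD, n = 3 mice). Only mouse 1157 turned, to 3 and 2. Mouse 1168 stayed at -1 at both levels, and mouse PDGF1 had no enzyme gene at 5 FPKM in either cell.

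CTCs were then compared with tumor cells over the 3 mice, gene by gene. None of the enzymes passed the test: limma on log2(FPKM + 1), with Benjamini-Hochberg adjustment over the 4165 genes that reached 1 FPKM in 3 or more cells, called 0 of the 13 enzyme genes tested, and 0 of them had an unadjusted p under 0.05. Over all genes it called 0, or 0% of those tested, and 7 had an unadjusted p under 0.05. The median difference, CTC minus tumor cell, was 0.10 over the 13 genes and -0.06 over all genes tested. The 13 were Sod1, Prdx1, Prdx2, Prdx6, Txn1, Txnrd1, Gpx4, Gpx7, Gstm5, Txndc11, Txndc16, Txndc17 and Txnl4a. The filter asks for a value of 1 FPKM outside mouse 1168 too, so the 13 do not stand for all 60. Such a value can lie under the receptor background. Gstm5 and Txnrd1 passed through the tumor cell of mouse PDGF1, at 1.29 and 1.35 FPKM against a background of 7.02. Gpx4 passed through the tumor cell of mouse 1157, at 1.57 against 1.58. Each of the other tested enzymes stood above background in a cell outside mouse 1168. The median SD within a group was 1.88 on this scale over all genes tested. With the mouse as a block, 1 of 4165 genes was called, or 0.0240%, and 217 had an unadjusted p under 0.05; the enzymes again had 0 calls, with adjusted p from 0.935 to 0.998 (limma).

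Sod1 and Prdx2 alone among the 60 were at 1 FPKM or more in all 6 cells. Sod1, the copper-zinc superoxide dismutase of the cytosol, was at 3.86, 2967 and 2.04 FPKM in CTCs (in the order 1157, 1168, PDGF1, kept below) and at 4.93, 1050.2 and 2.47 in tumor cells. The groups overlapped, with the cells of mouse 1168 far above the rest in both. The difference was 0.34 (SE 4.39, adjusted p = 0.9999, limma).

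Prdx2, a cytosolic peroxiredoxin best known from red blood cells, was at 109.8, 1454 and 1.23 FPKM in the CTCs and at 2.52, 692 and 3.21 in the tumor cells. It was higher in the CTC of mice 1157 and 1168 and lower in that of mouse PDGF1, where both values lay under background. The difference was 1.71 (SE 4.48, adjusted p = 0.9999, limma). The 7 red cell markers summed to at most 0.209 FPKM in any CTC, and to 1.88 in the tumor cell of mouse 1157, where Slc4a1 was at 1.70. Hba-a2 was listed at 0 in all 6 cells. The part of red cells in the Prdx2 values was not tested. Prdx2 shares exon bases with Junb and Rnaseh2a on the opposite strand, and the sources used here do not give whether reads were counted by strand. Rnaseh2a was at 3.19 FPKM versus 0.164 in mouse 1157 and at 54.4 versus 25.4 in mouse 1168, higher in the CTC of both as Prdx2 was. Junb was lower in both CTCs, at 0.111 versus 0.632 and at 0.0192 versus 6.14. The part of either gene in the Prdx2 values was not tested.

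The largest fitted difference belonged to Txndc17, a small thioredoxin-like protein of the cytosol that also acts in TNF signalling. It was at 468, 176 and 0.353 FPKM in the CTCs and at 1.70, 109.6 and 0.339 in the tumor cells. The CTC of mouse 1157 set this difference, with 7.44 there, 0.68 in mouse 1168 and 0.01 in mouse PDGF1. The fit gave 2.71 (SE 4.0, adjusted p = 0.9999, limma), and 0.35 without mouse 1157.

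On the other side, Txndc16 and Txnrd1 had the lowest fitted differences. Txndc16, a thioredoxin-domain protein of the endoplasmic reticulum, was at 0.667, 1.41 and 0.0489 FPKM in the CTCs versus 2.58, 2.97 and 0.825, a difference of -0.87 (SE 1.01, adjusted p = 0.9999, limma). It was lower in the CTC of each mouse, yet the groups overlapped, since the CTC of mouse 1168 stood above the tumor cell of mouse PDGF1. Txnrd1, the cytosolic thioredoxin reductase, was at 0.0452, 6.28 and 0.0216 FPKM in the CTCs versus 0.213, 16.1 and 1.35, a difference of -0.88 (SE 1.35, adjusted p = 0.9999, limma).

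Prdx1, the other main cytosolic peroxiredoxin, went opposite ways in different mice. CTC values were 20.1, 137 and 0.353 FPKM and tumor cell values 1.62, 421 and 1.87, so it was higher in the CTC of mouse 1157 and lower in that of mouse 1168. Gpx7, a peroxidase of the endoplasmic reticulum without selenium, did so in reverse, at 0.757, 14.5 and 0 FPKM versus 12.2, 6.26 and 0.0221. Both differences were within their error, at 0.10 (SE 3.78) for Prdx1 and -0.62 (SE 1.85) for Gpx7.

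For 0 of the 13 genes tested did the CTC values all lie above or all below those of the tumor cells, where 1.56% of all genes tested did. Txndc17 alone was higher in the CTC of all 3 mice, by 0.01 in mouse PDGF1. That is 7.69% of the 13 genes, against a background of 7.39%. Gpx4, Prdx6, Txndc16 and Txnrd1 were lower in the CTC of all 3 mice, 30.8% of the 13, against a background of 15.3%. Each passed the filter through both cells of mouse 1168 and a tumor cell of another mouse. The lower sign in that other mouse was therefore set by the filter, and the share is not a result about these enzymes. In mouse PDGF1 all signs named here rest on values under background. In mouse 1157 the same holds for Gpx4 (0.735 versus 1.57 FPKM) and Txnrd1 (0.0452 versus 0.213). The CTC values of Prdx6 and Txndc16 in mouse 1157 were also under background. For Gpx4 and Txnrd1 only mouse 1168 gives a sign from values above background.

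**Figure D3:**
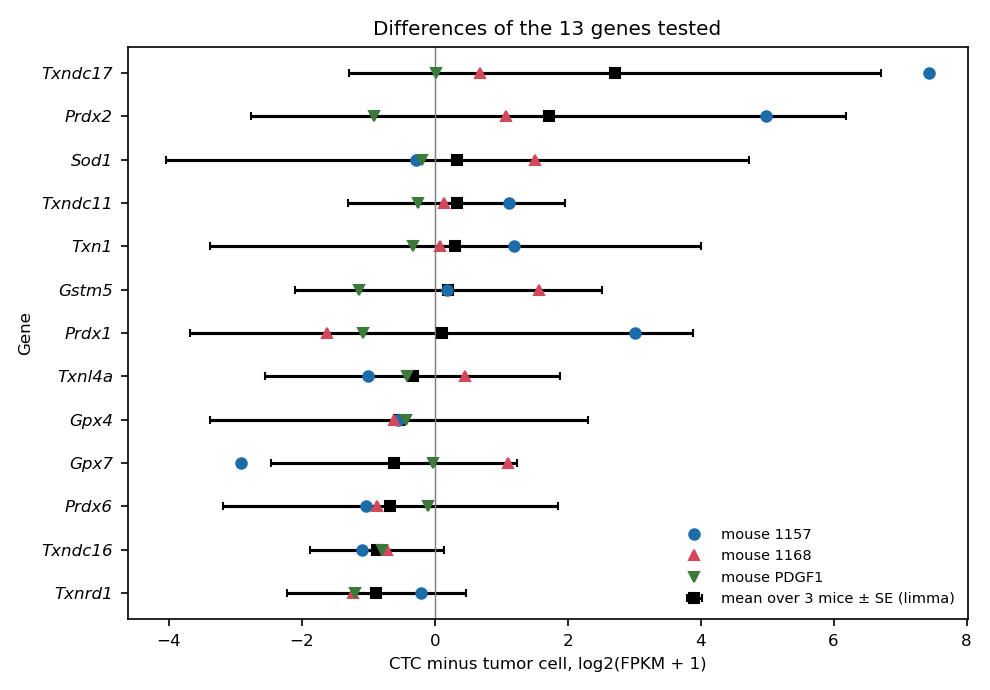
Difference, CTC minus tumor cell on log2(FPKM + 1), of the 13 genes tested. Black squares with bars are the mean over 3 mice with the SE from limma without the mouse as a block, and coloured marks are the single mice. The mark of mouse 1157 at 7.44 for Txndc17 lies farthest from 0, and the bar of each gene crosses 0. With the mouse as a block (not drawn) the SE was smaller than the difference for Txndc17 (2.71, SE 1.48), Txndc16 (-0.87, SE 0.64) and Txnrd1 (-0.88, SE 0.73). None of the 13 genes was called in that fit either.

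Within mouse 1168, whose cells allow most of the 60 genes to be compared, 45 were at 1 FPKM or more in either cell and 35 in both. By at least 1 on the log2(FPKM + 1) scale, 8 were higher in the CTC, or 17.8%, where 22.7% of all genes measured in this mouse were, and 13 were lower, or 28.9%, where 24.9% of all genes were. The other 24 differed by less than 1. The median was -0.04 versus 0.04 over all genes, so both medians were near 0. These values compare 1 library with 1 other and have no replicate check. Scaling moved them as well: over 8545 genes at 1 FPKM or more in both cells the median ratio was 1.25 in favour of the CTC, 0.32 on the log2 scale. After division by that ratio, 5 genes were higher by at least 1 in place of 8, with Prdx2, Sod2 and Gpx7 no longer among them, and 15 were lower in place of 13, with Prdx4 (-1.26) and Prdx6 (-1.18) added.

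Both intracellular superoxide dismutases stood higher in the CTC of mouse 1168, also after division by the median ratio. Sod1, at 2967 versus 1050.2 FPKM, was 2.83 times as high and ranked 38th in the CTC and 85th in the tumor cell among named protein-coding genes. Sod2, the manganese enzyme of the mitochondrial matrix, was at 38.5 versus 16.6 FPKM. Ccs, the copper chaperone that loads Sod1, was at 28.7 versus 21.7. Sod1 and Prdx2 together made up 64.8% of the FPKM of the 60 genes in this CTC and 39.8% in the tumor cell, and the sum of the 60 was 6826 versus 4384 FPKM. Without these 2 genes the sums were 2405 and 2641.

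Among peroxiredoxins the balance between the 2 cytosolic forms differed in mouse 1168. Prdx2 was at 1454 FPKM in the CTC versus 692, while Prdx1 was at 137 versus 421, so Prdx2 stood at 10.6 times Prdx1 in the CTC and 1.64 times in the tumor cell. The coding sequences of the 2 genes are 70.0% identical. Srxn1, sulfiredoxin, which repairs overoxidized peroxiredoxins, was at 3.83 FPKM in the CTC versus 38.6. Prdx4, the form of the endoplasmic reticulum, was at 32.9 versus 64.8, and Prdx6, which uses glutathione and also has phospholipase activity, at 66.3 versus 122. Prdx5, found in mitochondria and peroxisomes, was at 222 versus 177, and the mitochondrial Prdx3 was the least abundant of the intact forms apart from Prdx6b, at 11.3 versus 14.8.

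The thioredoxins differed little between the cells of mouse 1168, and their reductases differed more. Txn1, the cytosolic thioredoxin, was at 574 FPKM in the CTC versus 548 in the tumor cell, and the mitochondrial Txn2 at 219 versus 282. Txnrd2, the mitochondrial reductase, was at 69.5 versus 8.56, and the cytosolic Txnrd1 at 6.28 versus 16.1. The ratio of Txnrd2 to Txnrd1 was therefore 11.1 for the CTC and 0.532 for the tumor cell. Txnrd2 lies at chr16:18426384-18479073 on the plus strand (GRCm38). In mouse 1157 it was at 0.447 FPKM in the CTC and listed at 0 in the tumor cell.

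Txnip, which binds and inhibits thioredoxin and follows glucose supply, had 0.157 FPKM in the CTC of mouse 1168 versus 3.35, and Txnrd3, a reductase of the testis that also carries a glutaredoxin domain, had 0.124 versus 1.42. Both values of Txnrd3 lay under the receptor background of their cells, and among genes above background in either cell 12 enzymes were lower in this CTC by at least 1 in place of 13. Elsewhere neither gene reached 1 FPKM.

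Among glutathione peroxidases of mouse 1168, the abundant selenoenzymes differed by less than 1 and the forms without selenium by more, in opposite directions. Gpx1, the cytosolic selenoenzyme, was at 175 FPKM in the CTC versus 187, and Gpx4, which reduces lipid peroxides in membranes and so guards against ferroptosis, at 114 versus 175. Gpx3, the secreted selenoenzyme of plasma, was at 0.271 versus 3.45. Of the 2 enzymes of the endoplasmic reticulum that lack selenium, Gpx8 was at 10.3 versus 45.7 and Gpx7 at 14.5 versus 6.26, so Gpx8 was at 0.705 times Gpx7 in the CTC and 7.30 times in the tumor cell.

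Glutathione transferases had differences from -4.99 to 1.58 between the cells of mouse 1168. Genes of the mu class lie side by side on chromosome 3, from Gstm5 (chr3:107895821-107898686, plus strand) to Gstm4 (chr3:108040408-108044894, minus strand). Within this cluster Gstm1 had 143 FPKM in the CTC of mouse 1168 versus 102 in its tumor cell, and Gstm5, the form typical of brain and testis, had 124 versus 41.7. The 5 other genes there were at or below 3.46 FPKM in either cell. Gstm2 was listed at 0 in the CTC of both mouse 1157 and mouse 1168, against 3.41 and 3.46 in their tumor cells. Coding sequences of Gstm2 and Gstm3 match that of Gstm1 at 86% and 89.5% of positions, and that of Gstm5 matches at 69.8%. The sources used here do not give how reads shared by several genes were assigned, so low values beside Gstm1 are uncertain.

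Of all 60 genes, Gsto1 differed most between the cells of mouse 1168. This omega-class transferase, with a role in reducing dehydroascorbate and in macrophage activation, was at 0.418 FPKM in the CTC versus 44.0, a difference of -4.99. In mouse 1157 it was at 0.307 versus 1.39 and in mouse PDGF1 at 0.0703 versus 0.0245. Its neighbour Gsto2, on the same strand of chromosome 19, was listed at 0 in that CTC versus 0.294, and had its highest value, 2.68 FPKM, in the CTC of mouse PDGF1, under the background of that cell.

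Alpha-class genes went both ways in mouse 1168. Gsta4, which clears the lipid aldehyde hydroxynonenal, was at 7.09 FPKM in the CTC versus 19.3, and Gsta3 at 2.42 versus 0.144. Gstp1, the pi-class enzyme often raised in tumors, was at 20.7 versus 21.3, and its copy Gstp2, 98.1% identical in coding sequence, was listed at 0 versus 0.0307. The theta-class Gstt2 and Gstt4 were listed at 0 in the CTC and at 1.99 and 1.73 in the tumor cell. Gstt1, Gstk1 and Gstz1, of the theta, kappa and zeta classes, were at 4.45, 8.14 and 9.92 FPKM in the CTC versus 2.60, 4.64 and 6.81.

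The quinone reductase Nqo1, a standard reporter of NRF2 activity, had 8.64 FPKM in the CTC of mouse 1168 versus 7.25, and Nqo2 had 1.79 versus 5.03. Exons of Nqo2 share up to 762 bases with Serpinb6a on the opposite strand, which was at 10.7 versus 74.4. Outside mouse 1168 Nqo1 was at most 0.0642 FPKM.

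Of the thioredoxin-domain proteins 10 of 12 were measured in mouse 1168, and 8 of these differed by less than 1. Txnl4b was at 17.2 FPKM in the CTC versus 2.82, while its splicing relative Txnl4a was at 53.6 versus 38.7. Txndc12, a disulfide enzyme of the endoplasmic reticulum, was at 4.98 versus 13.9. Txndc17, Txndc9, which assists the folding of tubulin and actin, and Txnl1, which sits on the proteasome, were at 176, 51.7 and 30.3 versus 109.6, 45.5 and 35.8. Gstm5, Gstt3, Gstz1, Prdx5, Txnip, Txndc5, Txndc11, Txndc16, Txnl1, Txnl4a and Txnrd2 also share exon bases with a neighbouring gene, which leaves their values uncertain to that degree.

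**Figure D4:**
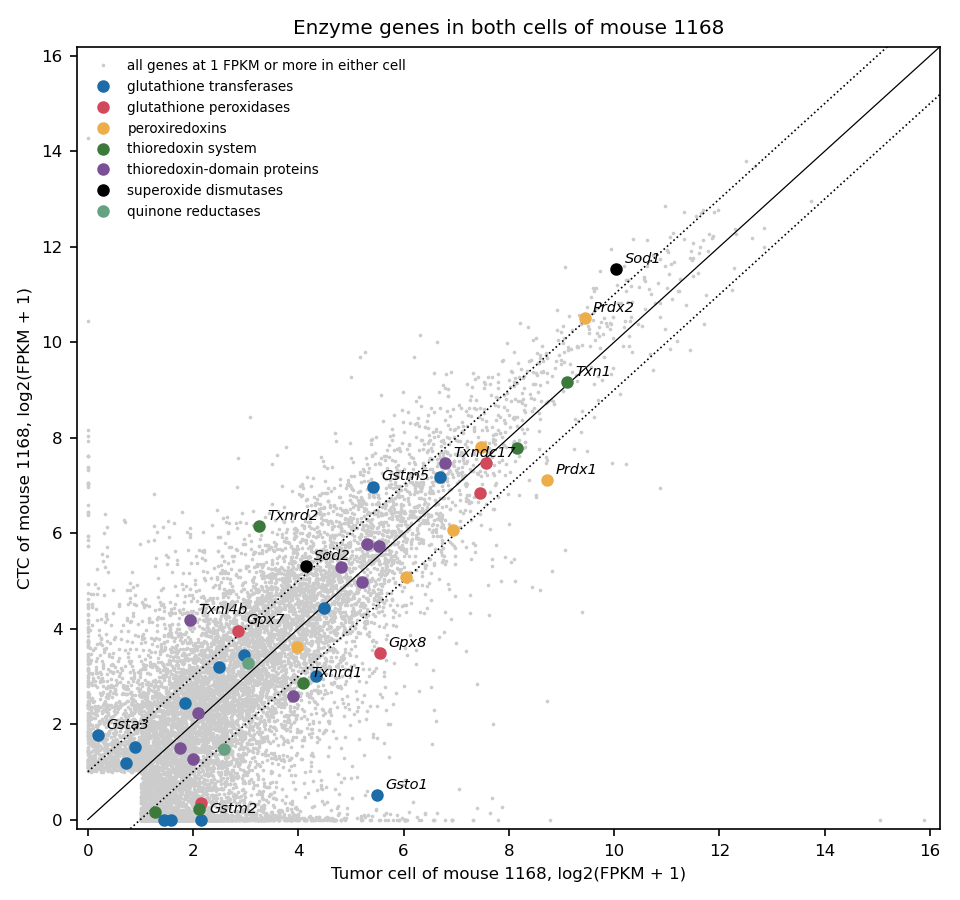
Level in the CTC against level in the tumor cell of mouse 1168, both as log2(FPKM + 1), for the enzyme genes at 1 FPKM or more in either cell (coloured by class) over all such genes (grey). The solid line marks equal levels and dotted lines a difference of 1; Txnrd2 and Txnl4b lie farthest above the lines, with differences of 2.88 and 2.25, and Gsto1 farthest below, at -4.99.

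Markers of other cell types also differed between the cells of mouse 1168, in both directions. In the tumor cell of mouse 1168, 13 of 15 microglia and macrophage markers were at 1 FPKM or more, with a sum of 2559 FPKM and none listed at 0. In its CTC 7 were, with a sum of 252 and 3 listed at 0, among them Aif1 and C1qa. Of 6 leukocyte markers 5 were at 1 FPKM or more in the tumor cell and 1 in the CTC. Oligodendrocyte progenitor markers summed to 458 FPKM in the CTC of mouse 1168 and to 206 in its tumor cell. In the other mice the macrophage markers summed to 4.63 and 2.24 FPKM in the CTCs and 13 and 26.1 in the tumor cells. The part of these cell types in the values of Gsto1, Prdx1, Srxn1 and Gpx8 was not tested. In the CTC and tumor cell of mouse 1168, in that order, endothelial markers summed to 0.650 and 10.5 FPKM, platelet markers to 72.2 and 12.8, mature oligodendrocyte markers to 11.6 and 55.9, neuron markers to 0.213 and 4.95 and hepatocyte markers to 0.0342 and 0.216. Platelet signal was mostly Itga2b, at 68.0 and 6.09. Astrocyte markers summed to 664 and 46.9, of which Aldoc made up 613 and 30.9, while Gfap was listed at 0 in the CTC.

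In mouse 1157, 14 enzyme genes were at 1 FPKM or more in either cell, 5 higher in the CTC by at least 1 and 5 lower, against 29.0% and 37.1% of all genes measured there. Txndc17 and Prdx2 made up 92.7% of the FPKM of the 60 genes in this CTC. After these and Prdx1 came Txn1, at 3.42 versus 0.933, and Txndc11, which helps to mature a thyroid oxidase, at 5.11 versus 1.81. Lower in the CTC were Gpx7, Gstm2, Txndc16, Prdx6 and Txnl4a, the last 2 at 0.335 and 0.332 versus 1.72 and 1.69, near the background of 1.58 in that tumor cell. This CTC held 7 of the 60 enzymes at 1 FPKM or more. It also had higher sums of leukocyte markers, 12.1 FPKM versus 6.78, and of endothelial markers, 20.6 versus 3.91. Laptm5, at 9.81 versus 2.03, and Vwf, at 19.4 versus 0.635, set these sums. All other markers of both lists were lower in this CTC. The part of these cell types in the Txndc17 and Prdx2 values was not tested.

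In mouse PDGF1, 6 enzyme genes were at 1 FPKM or more in either cell. Gsto2 was higher in the CTC by at least 1, where 23.7% of all genes measured were, and Txnrd1, Gstm5 and Prdx1 were lower, where 59.9% were. Gstm5 was at 0.0375 FPKM in the CTC versus 1.29, and the highest value of any of the 60 genes was 3.21, for Prdx2 in the tumor cell. All of these lay under the receptor background.

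Other genes of the same pathways, taken from lists of genes that the name pattern does not cover, gave 0 calls by limma in each list. Glutathione synthesis and recycling had 8 of 17 genes tested, with a median difference of -0.30. Ggt7, of the family that breaks down glutathione outside the cell, had the smallest p, at -1.49 (SE 1.11, unadjusted p = 0.179), and Slc7a11, the cystine importer that feeds glutathione synthesis, came next at -1.01 (SE 1.09). Slc7a11 was at 1.24, 0.701 and 0.114 FPKM in the CTCs versus 1.07, 9.16 and 0.663, so it was lower in 2 of 3 CTCs. Both genes passed the filter through both cells of mouse 1157 and a further tumor cell. That cell was from mouse PDGF1 for Ggt7 and from mouse 1168 for Slc7a11. Their lower signs in those mice were therefore set by the filter. In mouse 1168 this list had 4 genes higher and 4 lower by at least 1 of 15 measured, near the shares over all genes there (22.7% higher and 24.9% lower).

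Glutaredoxins and repair enzymes had 6 of 16 tested, with a median of -0.17. Sesn3, a stress-induced sestrin, had 177 FPKM in the CTC of mouse 1157 versus 0.176, and its difference was 2.77 (SE 1.95, unadjusted p = 0.156, limma). Outside mouse 1168, Sesn3 passed the filter through that CTC alone, so its higher sign in mouse 1157 was set by the filter. Msrb1, a selenoprotein that repairs oxidized methionine, was at 0.431, 5.25 and 0.0334 versus 0.520, 57.1 and 6.98, at -2.08 (SE 2.06). It was lower in the CTC of 3 of 3 mice, as 15.3% of all genes tested were. Msrb1 passed the filter through both cells of mouse 1168 and the tumor cell of mouse PDGF1. Its lower sign in mouse PDGF1 was therefore set by the filter. Its values in mice 1157 and PDGF1 lay under the receptor background of their cells. In mouse 1168 the 4 glutaredoxins, which reduce mixed disulfides with glutathione or carry iron-sulfur clusters, were higher in the CTC, with Glrx3 at 781 FPKM versus 334, Glrx5 at 233 versus 115, Glrx2 at 177 versus 45.1 and Glrx at 44.0 versus 26.2. Catalase, Cat, was at 15.5 versus 36.8. Of all 16 genes, 5 were higher and 5 lower by at least 1, beside 22.7% and 24.9% of all genes in that mouse.

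Genes that supply NADPH had 8 of 13 tested, with a median of -0.30. Mthfd2 was at -1.11 (SE 1.62) and G6pdx, which opens the pentose phosphate pathway, at -0.89 (SE 1.38). Outside mouse 1168, Mthfd2 passed the filter through the tumor cell of mouse PDGF1 alone, and G6pdx through that of mouse 1157. Their lower signs in those mice were therefore set by the filter. In mouse 1168, 7 of 12 measured had lower CTC values by at least 1, and Idh2 alone was higher, beside 24.9% of all genes lower and 22.7% higher in that mouse, with G6pdx at 5.47 versus 17.8 FPKM and Pgd at 15.7 versus 56.9. In mouse 1157 Pgd went the other way, at 142 versus 0.551.

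NRF2 regulators and further NRF2 targets had 10 of 23 tested, with a median of 0.04. Cul3, the ligase that degrades NRF2, was at 1.90 (SE 2.76) and the ferritin light chain Ftl1 at 2.24 (SE 4.36). Outside mouse 1168, Cul3 passed the filter through the CTC of mouse 1157 alone, so its higher sign in that mouse was set by the filter. Nfe2l2, which encodes NRF2, had 14.0 FPKM in the CTC of mouse 1168 versus 19.5, its inhibitor Keap1 had 43.9 versus 11.2, and Hmox1, a classical target, had 1.08 versus 2.50. Of 20 measured in that mouse, 6 were higher and 2 lower by at least 1, beside 22.7% and 24.9% of all genes. For selenoprotein synthesis 4 of 9 genes were tested, with a median of -0.43. Scly was at -0.88 (SE 0.80), and Trnau1ap, which binds the selenocysteine tRNA, at 2.80 (SE 3.38), with 342, 61.7 and 0.155 FPKM in the CTCs versus 4.68, 8.72 and 0.321. Outside mouse 1168, Scly passed the filter through the tumor cell of mouse 1157 alone. Its lower sign in mouse 1157 was therefore set by the filter. Of the membrane-bound transferases and their relatives 0 of 7 passed the filter. Mgst1 had 72.3 FPKM in the CTC of mouse 1168 versus 256.

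The core of the antioxidant response element, TGACNNNGC, through which NRF2 acts, was searched on both strands of the RefSeq promoters (GRCm38.p6, from 250 bases before to 50 after each start). It was present for 9 of 52 enzyme genes with a promoter entry, or 17.3%, and for 14.0% of all 27025 genes. The share among the enzymes was thus near that of all genes. Of the 13 genes tested, 5 had a match. The share with a match among all genes tested was not worked out, so this count has no background of its own. The 5 matches are shown along the strand that holds the motif, in capitals, with the bases beside it.
Sod1: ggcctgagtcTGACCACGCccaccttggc
Prdx1: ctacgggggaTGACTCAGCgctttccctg
Txnrd1: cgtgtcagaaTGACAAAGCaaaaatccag
Gstm5: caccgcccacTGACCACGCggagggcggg
Txndc11: gtggaaggcTGACGCGGCcgcgagtgct
The match of Prdx1 lies at chr4:116685466-116685474 and that of Sod1 at chr16:90220706-90220714, both on the strand opposite to the gene. These 5 genes did not move as 1 in mouse 1168, where Sod1 and Gstm5 were higher in the CTC, Prdx1 and Txnrd1 lower, and Txndc11 within 1.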

How the data were processed

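RNA of 6 single mouse cells was sequenced. The authors deposited 1 table of FPKM per gene and cell; STAR 2.4.2a, Cufflinks 2.2.1 and the build GRCm38 are listed, without a role, per the submitters' processing notes. From 45038 rows, 234 with a name repeated or turned into a date were left out. Values became log2(FPKM + 1), and limma 3.58.1 (R 4.3.3), with its trend option and two-sided, compared the groups over the 4165 genes that reached 1 FPKM in 3 or more of 6 cells. Adjustment was by Benjamini-Hochberg with a threshold of 0.05, and the step was tested on simulated data. There, recovery of planted changes was required only at a spread well below the median SD of 1.88 of these cells. Recovery at the spread of these cells is not given here, so 0 calls do not show equal levels. The log2 scale with a pseudocount of 1 understates changes of low genes. Within a mouse there is no replicate, so a difference of 1 on that scale was used as a limit and no p is given.

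The labels give a CTC and a tumor cell per mouse, which pairs them; after removal of group means, cells of a mouse correlated across genes at 0.178 (1157), 0.689 (1168) and 0.428 (PDGF1). Alternatives were a block for the mouse, other pseudocounts, filters and scalings, and left-out cells or mice (fitted on the same genes). The replicates of a group are single cells of different mice.

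The genes, lists and markers were chosen with earlier results of these data known. Genes were named by a rule: smallest p, highest FPKM, largest differences within each mouse, and the top genes of each class. In the pathway lists it took up to 2 genes by smallest p, and further genes, there and among the 60, were chosen after their values were seen. The 3 pseudogene symbols end in -ps and a number. Python 3.11.15, pandas 2.3.3 and Biopython 1.88 did the rest. Coordinates and transcripts are from GENCODE mouse release 21.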

Additional observations from a re-analysis of the deposited data

How the results depend on the processing

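With the mouse as a replicate block, 1 gene of 4165 was called in place of 0, which is none of the 60 enzymes; in the other alternatives 0 genes were called, and the enzymes had 0 calls in all alternatives run. The mean difference in enzyme genes detected, -3.67, was -8 at 0.1 FPKM, 0.667 at 5 FPKM, 0.333 at 10 FPKM, -1 above the receptor background and -9.33 with FPKM rescaled to a common sum per cell; leaving out a mouse gave -4.5 to -3. In mouse 1168, 5 enzyme genes were higher by at least 1 after rescaling to a common sum and 5 after division by the median ratio, in place of 8 (alternatives chosen after seeing the data).

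Among the 13 genes tested the direction turned for Gstm5 (-0.36) and Prdx1 (-0.06) with a pseudocount of 0.1, for Gstm5 with quantile normalization (-0.01, also with the block), and with the common sum for Gstm5 (-0.95), Prdx1 (-0.66), Sod1 (-0.25), Txn1 (-0.17) and Txndc11 (-0.18). Leaving out cells or mice gave -2.64 to 1.60 for Gpx4, -1.80 to 0.53 for Gpx7, -2.05 to 1.77 for Gstm5, -1.46 to 2.52 for Prdx1, -0.47 to 4.21 for Prdx2, -2.58 to 1.34 for Prdx6, -2.86 to 2.96 for Sod1, -2.28 to 3.03 for Txn1, -0.06 to 0.91 for Txndc11, -2.16 to 1.11 for Txnl4a and -1.82 to 0.23 for Txnrd1. Leaving out 1 cell or mouse thus turned 11 of these 13 differences, while Txndc16 and Txndc17 kept their direction. Leaving out 1 cell leaves the other cell of that mouse without its pair. When a whole mouse was left out, Gpx4, Prdx2, Prdx6 and Txnrd1 kept their direction too. The depth of each cell is unknown, which limits every statement on low values.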
